A study of Mus musculus with 11 samples.

Results

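The cytochrome P450 enzymes of families 1 to 4 and the proteins that control them were followed in livers of β-catΔEx3, β-catΔEx3:Myc and WT mice. The 42 genes were chosen by name: 38 P450 genes (36 of families 1 to 4 and the related Cyp17a1 and Cyp26a1), the receptors Ahr, Nr1i2 and Nr1i3, and the P450 reductase Por. The array held a probe matched by accession for 38 of the 42, out of 20145 gene symbols in all, and all 38 were tested, 34 of them P450 genes. No probe was matched for Cyp2a5, Cyp2c40, Cyp2c44 or Cyp3a41a. RefSeq lists Cyp2c44 as an older name of Cyp2c23, which is described with the other P450 genes.

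P450 enzymes are heme proteins of the endoplasmic reticulum that oxidise drugs, pollutants, steroids, bile acids and fatty acids, and they draw their electrons from the reductase encoded by Por. The level of many of them in the liver is set by the receptors Ahr, which binds aromatic hydrocarbons, Nr1i2 (PXR), which binds many drugs and steroids, and Nr1i3 (CAR), which answers to phenobarbital-like compounds. In normal liver many P450 genes are expressed most around the central veins, where Wnt and β-catenin signalling is active, while Cyp2f2 is a gene of the periportal zone. In mice some are also sex-biased through the pattern of growth hormone, with Cyp2b9, Cyp2b13, Cyp3a44 and others higher in females and Cyp4a12a higher in males.

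The data came from 3 β-catΔEx3, 4 β-catΔEx3:Myc and 4 WT livers, each on its own 1-colour Agilent array, and all mice shared a mixed background of mainly B6SJL with some 129S6. β-catΔEx3 is a form of β-catenin that lacks the part encoded by exon 3, through which the protein is normally marked for destruction, and the second group carried Myc as well. The mice were 22 to 40 days old, except β-catΔEx3 replicate 3 (30 days), β-catΔEx3:Myc replicate 4 (29 days) and WT replicate 4 (31 days), which had their own age labels. The series describes the livers as bearing tumours, and the labels name neither the promoter or cell type behind the mutations nor say if the sample was tumour or surrounding liver. Nothing in them says how the mice were related, so p-values measure the spread between these samples.

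All 11 mice were labelled male, and 5 arrays went against that label. Xist, which is made from the inactive X chromosome, was well above background and the Y-linked transcripts Ddx3y and Eif2s3y were not in β-catΔEx3 replicate 1, β-catΔEx3:Myc replicates 1 and 4, and WT replicates 2 and 3. The other 6 arrays (2 in each group) had both Y-linked transcripts and no Xist above background. Xist stood at 1.46 to 2.0 on the 5 arrays and at -6.74 to -5.54 on the 6, on the level scale explained with the receptors. Results were therefore also computed on those 6 arrays alone and with this split as a block, both chosen after the data were seen. Arrays lay on 4 slides, slide 1 holding WT replicates 1 to 3, slide 2 replicates 1 and 2 of both mutant groups, slide 3 β-catΔEx3:Myc replicate 3, and slide 4 the remaining array of each group. WT was thus compared with the mutants within a slide only on slide 4, by 1 array each. On that slide β-catΔEx3:Myc replicate 4 had Xist, while WT replicate 4 and β-catΔEx3 replicate 3 had Y-linked transcripts. The β-catΔEx3:Myc difference from WT within slide 4 therefore also crosses that split.

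Between 47.8% and 52.4% of probes were well above background on each array. The Myc probe was 10.3-fold higher in β-catΔEx3:Myc than in WT livers (log2 fold change 3.37 ± 0.68 SE, adjusted p = 0.00277), although WT replicate 1 (2.05) stood above the other WT arrays (-0.76 to -0.01). Against β-catΔEx3 livers the Myc difference was 1.87 ± 0.73 SE and did not pass the test (adjusted p = 0.395), and β-catΔEx3:Myc replicate 3 (2.31) was near β-catΔEx3 replicate 1 (2.21). The Ctnnb1 probe did not pass the test (adjusted p = 0.416 and 0.378), and since its position against exon 3 was not known it checks nothing. Of 11 hepatocyte markers, 6 were lower in β-catΔEx3 livers and 5 in β-catΔEx3:Myc livers with none higher, and their summed signal was 7350 to 8360, 6480 to 8870 and 10000 to 12800 times the array's 75th percentile in β-catΔEx3, β-catΔEx3:Myc and WT livers. All 7 measured macrophage markers were lower in both mutant groups (summed signal 18.3 to 53.1, 16.1 to 59.6 and 214 to 333 in the same order of groups), and Cd68 was not tested. Of 8 endothelial markers 5 and 6 were lower, and of 8 stellate cell markers 2 and 5, in β-catΔEx3 and β-catΔEx3:Myc livers. Among the other lists, 1 cholangiocyte marker was higher and 0 were lower in β-catΔEx3 livers and 0 and 1 in β-catΔEx3:Myc livers, 3 of 5 lymphocyte markers were lower in both (1 was higher in β-catΔEx3:Myc livers), 2 of 6 erythroid markers were lower in β-catΔEx3 livers with 1 higher and 1 lower in β-catΔEx3:Myc livers, and 1 of 5 neutrophil markers was higher in β-catΔEx3:Myc livers. The sums of the other lists ranged from 53.3 to 69.7, 27.9 to 44 and 110 to 130 for 8 endothelial markers, from 77.4 to 79.4, 29.6 to 56.8 and 85.9 to 158 for 8 stellate cell markers, and from 0.886 to 3.67, 3.99 to 72.4 and 5.45 to 9.95 for 5 neutrophil markers (Ly6g, Cxcr2 and Mmp9 were not tested). They were 4.09 to 15.7, 3.13 to 6.77 and 2.51 to 14.1 for 7 cholangiocyte markers (Cftr was not tested), 6.26 to 7.58, 5.04 to 9.4 and 5.59 to 7.89 for 5 lymphocyte markers (Cd8a, Cd79a and Klrb1c were not), and 35.1 to 128, 29.5 to 562 and 350 to 643 for 6 erythroid markers (Hbb-b1 and Epb42 were not). The part of these cell types in the P450 results was not tested, and in whole livers fewer cells of a type and less RNA per cell cannot be told apart.

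Close relatives among these genes can share signal on an array, which was not tested and which promoter identity does not measure. The control regions of 2 pairs are compared here. RefSeq promoters (GRCm38.p6, 250 bases before to 50 after the start site) were matched for 35 of the 42 genes. Cyp2b9 (chr7:26173159-26173458, plus strand) and Cyp2b13 (chr7:26061245-26061544, plus strand) were identical over 99.3% of the aligned promoter, and in WT livers both were highest in replicates 2 and 3. Cyp3a16 (chr5:145469674-145469973, minus strand) and Cyp3a44 (chr5:145805825-145806124, minus strand) were identical over 93.4%, and their log2 fold changes in β-catΔEx3 livers were 0.23 and -4.79. The Cyp3a44 value was not called with slide as a block (-0.94, adjusted p = 0.692). On the arrays with Y-linked transcripts alone it was -2.15 (adjusted p = 0.408). In WT livers Cyp3a44 was highest in replicates 2 and 3 (4.92 and 5.30), which had Xist. Any part of the differing bases in these values was not tested. Capitals mark the bases that differ or have no aligned partner within each pair.
Cyp2b9: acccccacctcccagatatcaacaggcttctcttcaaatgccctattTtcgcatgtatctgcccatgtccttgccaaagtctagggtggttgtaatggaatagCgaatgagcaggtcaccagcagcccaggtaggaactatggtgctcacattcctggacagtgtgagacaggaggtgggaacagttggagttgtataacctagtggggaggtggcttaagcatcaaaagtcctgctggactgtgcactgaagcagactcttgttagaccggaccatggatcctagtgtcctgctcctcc
Cyp2b13: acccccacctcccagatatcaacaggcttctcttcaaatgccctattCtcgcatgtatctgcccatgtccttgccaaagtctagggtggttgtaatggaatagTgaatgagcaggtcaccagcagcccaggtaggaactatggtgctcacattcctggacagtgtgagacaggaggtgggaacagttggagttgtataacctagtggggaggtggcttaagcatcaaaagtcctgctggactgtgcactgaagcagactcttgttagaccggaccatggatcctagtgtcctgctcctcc
Cyp3a16: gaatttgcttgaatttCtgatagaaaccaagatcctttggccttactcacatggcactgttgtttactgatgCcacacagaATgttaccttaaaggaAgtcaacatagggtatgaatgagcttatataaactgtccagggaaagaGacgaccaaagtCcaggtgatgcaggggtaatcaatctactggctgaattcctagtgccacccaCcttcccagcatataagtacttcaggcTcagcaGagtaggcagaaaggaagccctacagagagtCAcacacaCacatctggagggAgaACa
Cyp3a44: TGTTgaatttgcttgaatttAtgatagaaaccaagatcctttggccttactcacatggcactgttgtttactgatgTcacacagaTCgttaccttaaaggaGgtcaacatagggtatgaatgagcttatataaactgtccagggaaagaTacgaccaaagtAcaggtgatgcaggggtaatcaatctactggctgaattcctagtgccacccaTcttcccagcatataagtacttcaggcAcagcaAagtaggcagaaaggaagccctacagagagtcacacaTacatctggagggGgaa

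The promoters were searched on both strands for the Ahr response element core GCGTG, the Tcf/Lef motif CTTTGAT, the Hnf4 motif CAAAGTCCA, the Stat5 motif TTCNNNGAA and an Hnf1 motif, and no match overlapped another. The Ahr core was found in 7 of the 35 promoters (32.4% of 32841 mouse promoters hold it), the Tcf/Lef motif in 2 (3.73%), the Hnf4 motif in 5 (0.475%), the Stat5 motif in 0 (8.3%) and the Hnf1 motif in 0 (0.399%). The Tcf/Lef matches were in Cyp2c29 and Cyp2c39, and the Hnf4 matches in Cyp2c40, Cyp2c70, Cyp3a11, Cyp3a16 and Cyp3a41a. The Hnf4 match of Cyp3a16 starts 99 bases before the start site and holds 1 of the bases that differ from Cyp3a44, in which these letters were not found. Por held the Ahr core at 3 places, more than any other of these genes, and Cyp2c70 held the Hnf4 motif 64 bases before its start. Both are shown with their matches in capitals (Por chr5:135688895-135689194, plus strand, and Cyp2c70 chr19:40187237-40187536, minus strand). They were chosen with their values known, as Por rose and Cyp2c70 fell in both mutant groups. Of the other genes with the Hnf4 motif, Cyp3a11 rose in both groups and Cyp3a16 was not called. Any part of these motifs in the changes was not tested.
Por: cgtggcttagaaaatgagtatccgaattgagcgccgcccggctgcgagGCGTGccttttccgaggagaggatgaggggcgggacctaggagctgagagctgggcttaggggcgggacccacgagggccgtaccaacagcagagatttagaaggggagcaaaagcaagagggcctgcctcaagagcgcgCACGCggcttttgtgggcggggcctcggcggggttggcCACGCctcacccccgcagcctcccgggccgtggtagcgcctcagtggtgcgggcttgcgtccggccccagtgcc
Cyp2c70: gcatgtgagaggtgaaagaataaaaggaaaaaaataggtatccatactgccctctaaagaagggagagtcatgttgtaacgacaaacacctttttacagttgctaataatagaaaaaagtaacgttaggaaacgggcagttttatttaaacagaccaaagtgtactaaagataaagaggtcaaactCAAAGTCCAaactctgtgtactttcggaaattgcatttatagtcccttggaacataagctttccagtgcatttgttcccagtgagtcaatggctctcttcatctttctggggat

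The question put to the data was how mutant β-catenin, without and with Myc, changed the set of P450 genes in the liver. In β-catΔEx3 livers 8 of the 38 tested genes rose and 7 fell against WT, and in β-catΔEx3:Myc livers 10 rose and 7 fell (limma, Benjamini-Hochberg adjusted p under 0.05 over 22282 items). Of all items tested, 21.6% rose and 15.5% fell in β-catΔEx3 livers (37.1% either way), and 25.3% rose and 17.1% fell in β-catΔEx3:Myc livers (42.4%), so the share of P450 genes called was near that of all items. Their median log2 fold change was 0.11 in β-catΔEx3 livers and 0 in β-catΔEx3:Myc livers, beside 0.10 and 0.14 over all items. The groups did not overlap for 14 genes (36.8%) in β-catΔEx3 and 15 (39.5%) in β-catΔEx3:Myc livers, beside 43.7% and 42.4% of all items. Single genes in β-catΔEx3 livers ran from -7.52 for Cyp2f2 to 3.51 for Cyp26a1.

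The count of calls moved with the slide. With slide as a fixed block, 1 gene rose (Por) and 4 fell in each comparison: Cyp2c70, Cyp2j5, Cyp4f14 and Cyp4v3 in β-catΔEx3 livers, and Cyp2j5, Cyp2r1, Cyp4f14 and Cyp4v3 in β-catΔEx3:Myc livers. Cyp2j5 passed the filter on dim probes only through WT. In that fit 4.16% of all items rose and 3.98% fell in β-catΔEx3 livers, and 4.29% rose and 4.45% fell in β-catΔEx3:Myc livers. Within slide 4, all 15 genes called in β-catΔEx3 livers and 16 of the 17 called in β-catΔEx3:Myc livers kept their sign, the exception being Cyp1a2. The slide 4 arrays also entered those calls, and genes whose groups did not overlap could not turn there. Only Cyp3a11 and Cyp3a44 in β-catΔEx3 livers, and Cyp1a2, Cyp2c37 and Cyp2u1 in β-catΔEx3:Myc livers, could turn. The kept signs are thus no separate support. On the 6 arrays with Y-linked transcripts, 5 genes rose and 4 fell in β-catΔEx3 livers and 6 rose and 5 fell in β-catΔEx3:Myc livers, of 37 tested, beside 5.57% and 5.08% and then 9.61% and 8.44% of 21114 items. That fit has 5 arrays fewer. With the split as a block on all 11 arrays the counts were 8 and 7, and 11 and 7, beside 19.9% and 14.7%, and 24.5% and 16.7% of all items. With slide and the split both as blocks, Por rose and Cyp2j5 fell in β-catΔEx3 livers and Cyp2j5 fell in β-catΔEx3:Myc livers, beside 2.02% higher and 2.11% lower, and 1.37% and 1.44% of all items. Taking the scaling percentile over probes above background on every array turned the split over all items from 4803 higher and 3463 lower to 3414 and 4662 in β-catΔEx3 livers, shifted the median of all items from 0.10 to -0.08, and gave 6 genes higher and 9 lower among the 38.

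**Figure D1:**
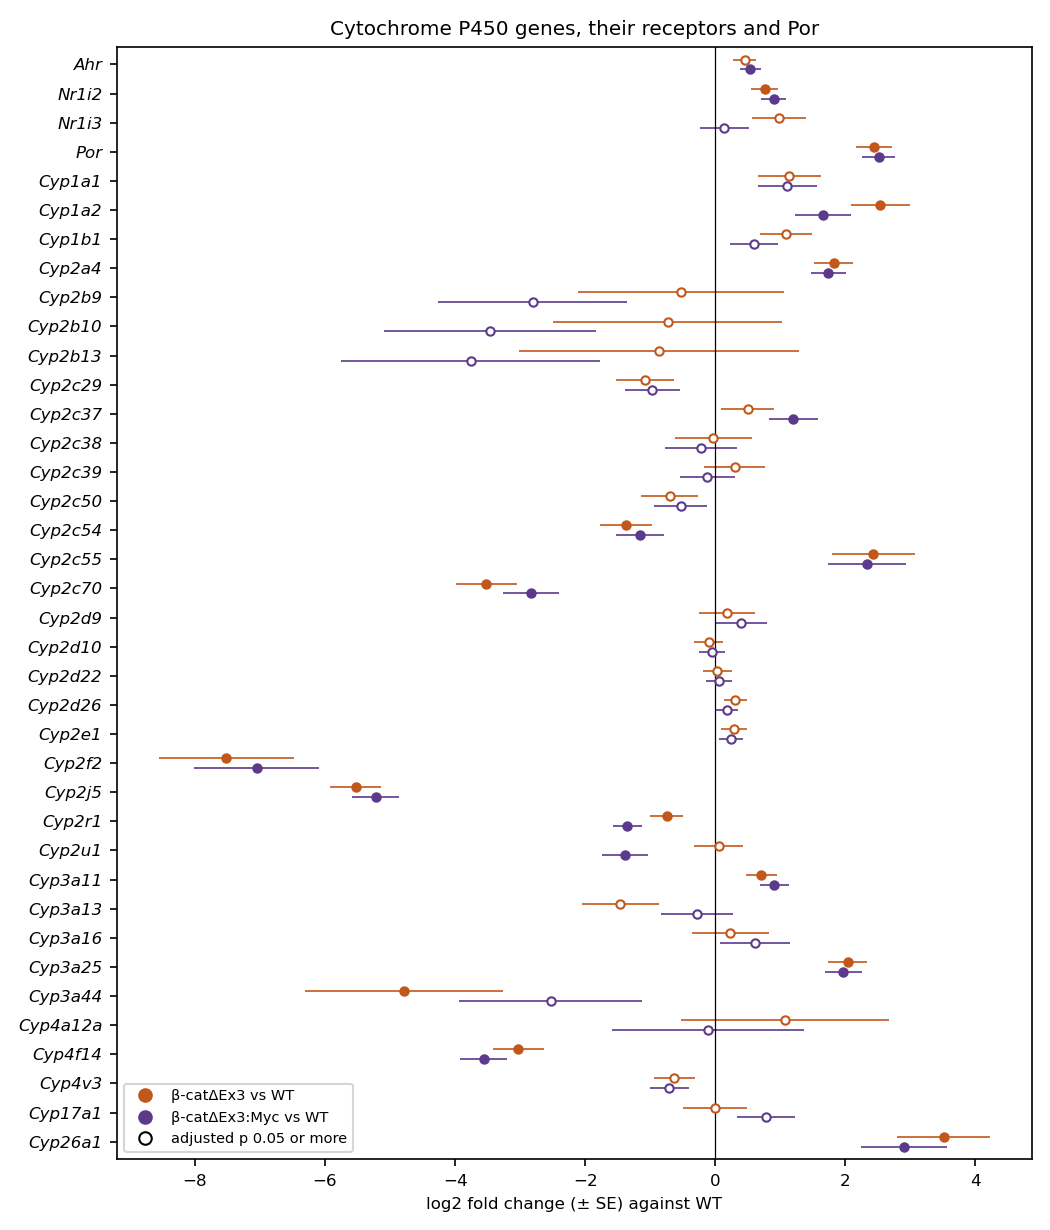
Log2 fold change against WT (points, with SE as bars) of the 38 tested genes in β-catΔEx3 (orange) and β-catΔEx3:Myc (purple) livers, with filled points for an adjusted p under 0.05. Cyp2f2 lies farthest to the left and Cyp26a1 farthest to the right, the points of Cyp2j5 are differences from signals not above background, and the bars are widest for the Cyp2b genes, Cyp3a44 and Cyp4a12a.

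Levels below are log2 signals after subtraction of the array's 75th percentile, so 0 is a signal at that percentile, and the level of a probe is not comparable with that of another. Among the receptors, Nr1i2 stood at 3.82, 3.46 and 3.54 in β-catΔEx3 livers, at 3.56, 3.62, 3.61 and 4.20 in β-catΔEx3:Myc livers and at 2.59, 2.87, 2.76 and 3.18 in WT livers. Every mutant array was above every WT array. It rose 1.69-fold in β-catΔEx3 livers (log2 fold change 0.76 ± 0.21 SE, adjusted p = 0.0154) and 1.86-fold in β-catΔEx3:Myc livers (0.90 ± 0.19, adjusted p = 0.00368). The β-catΔEx3 call was lost without β-catΔEx3 replicate 1 (0.65, adjusted p = 0.0655), and neither passed when slide was a block (0.60 and 0.78, adjusted p = 0.268 and 0.157) and on the 6 arrays with Y-linked transcripts (0.61 and 0.73, adjusted p = 0.209 and 0.123).

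Ahr measured 4.43, 4.55 and 3.93 in β-catΔEx3 livers, 4.54, 4.48, 4.32 and 4.25 in β-catΔEx3:Myc livers and 3.93, 3.84, 3.63 and 4.02 in WT livers. β-catΔEx3:Myc arrays lay above all WT arrays, and β-catΔEx3 replicate 3 lay among them. Ahr rose 1.46-fold in β-catΔEx3:Myc livers (log2 fold change 0.54 ± 0.16 SE, adjusted p = 0.0216). That call was lost without WT replicate 2 (0.54, adjusted p = 0.0516), without WT replicate 3 (0.47, 0.0647), without β-catΔEx3:Myc replicate 1 (0.50, 0.0566) and without β-catΔEx3:Myc replicate 2 (0.52, 0.054). It was also lost once slide entered as a block (0.14, 0.739) and on the 6 arrays with Y-linked transcripts (0.43, 0.333). In β-catΔEx3 livers the value was 0.45 ± 0.18 (adjusted p = 0.0697), and without β-catΔEx3 replicate 3 it was 0.64 (adjusted p = 0.0173).

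Nr1i3 was tightly grouped in β-catΔEx3 livers at 5.13, 4.97 and 5.09, and spread over 3.32, 4.63, 4.62 and 4.31 in β-catΔEx3:Myc livers and 3.07, 4.00, 4.54 and 4.72 in WT livers. The β-catΔEx3 arrays were above all others, but the difference from WT did not pass the test (log2 fold change 0.98 ± 0.41 SE, adjusted p = 0.0836, and 0.0495 without β-catΔEx3:Myc replicate 1, which enters through the shared spread). In β-catΔEx3:Myc livers it was 0.14 ± 0.38 (adjusted p = 0.804). The second probes of Ahr and Nr1i3 gave differences of the same sign (0.36 and 0.32 for Ahr, 0.80 and 0.04 for Nr1i3).

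Por, the electron donor of microsomal P450 enzymes, rose in both groups. It measured 8.10, 7.82 and 7.57 in β-catΔEx3 livers, 7.60, 8.01, 8.55 and 7.40 in β-catΔEx3:Myc livers and 5.09, 5.25, 5.68 and 5.52 in WT livers. The lowest mutant array was 7.40 and the highest WT array 5.68. Por rose 5.44-fold in β-catΔEx3 livers (log2 fold change 2.44 ± 0.27 SE, adjusted p = 0.000158) and 5.68-fold in β-catΔEx3:Myc livers (2.51 ± 0.25, adjusted p = 6.04e-05). It was also called with slide as a block (2.04 and 1.89, adjusted p = 0.016 and 0.0201) and on the 6 arrays with Y-linked transcripts (2.39 and 2.97, adjusted p = 0.00997 and 0.00545). With slide and the split both as blocks, it was called in β-catΔEx3 livers (2.01, adjusted p = 0.0385) and not in β-catΔEx3:Myc livers (1.83, adjusted p = 0.0606).

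**Figure D2:**
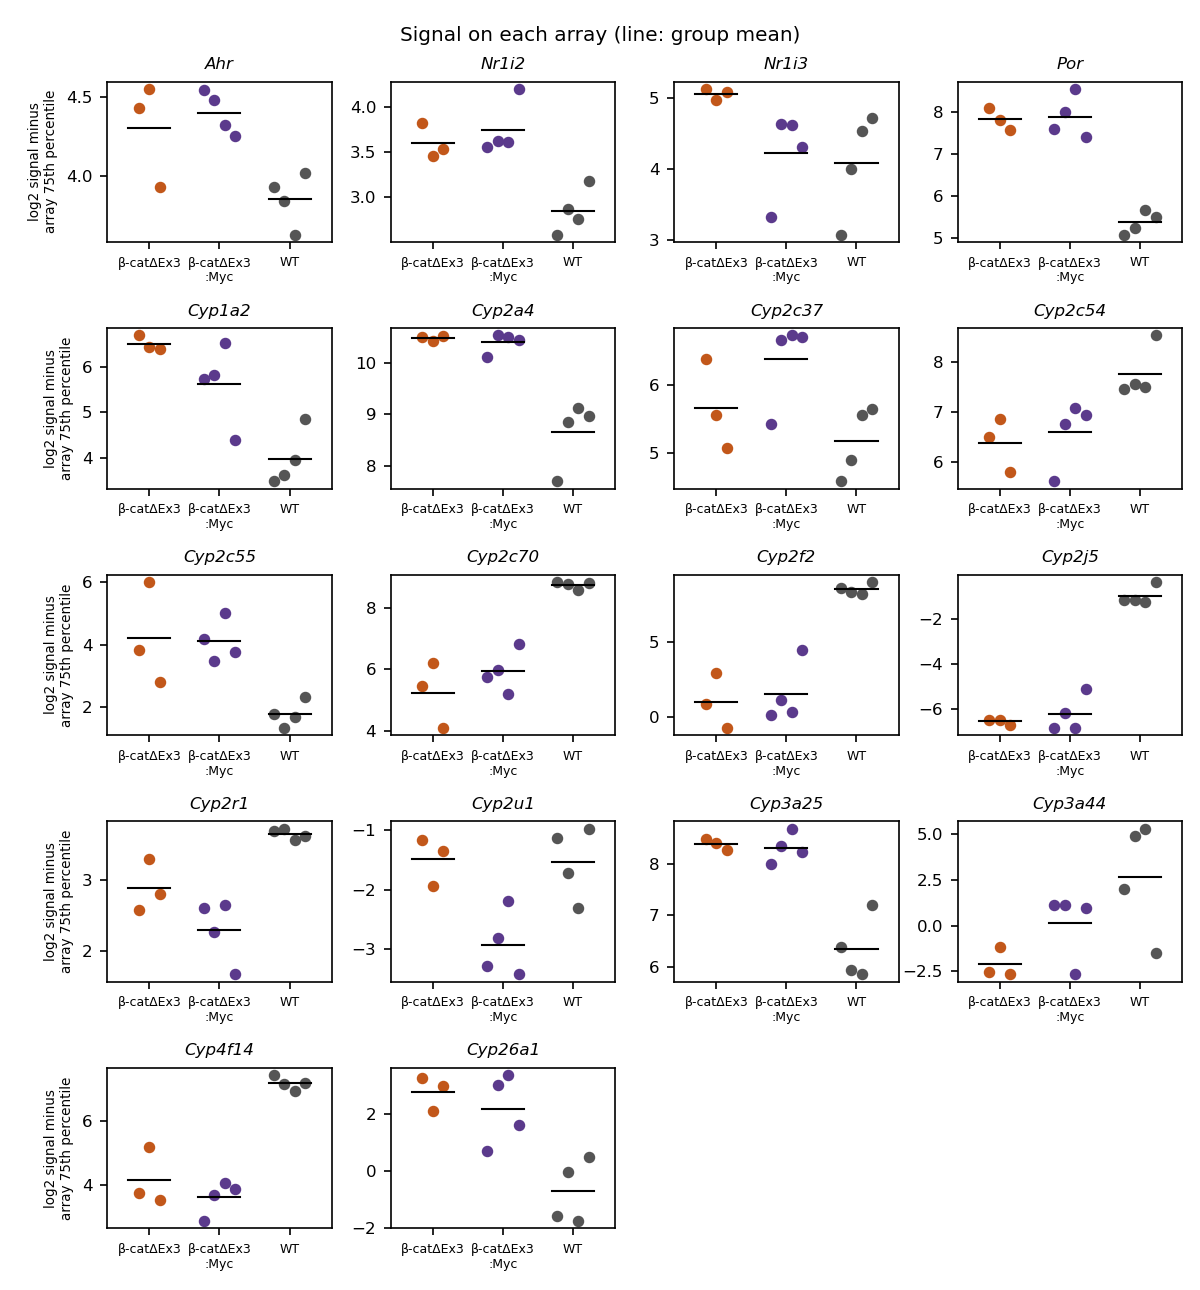
Log2 signal minus the array's 75th percentile (vertical axis) on each array (points) of β-catΔEx3, β-catΔEx3:Myc and WT livers, with the group mean as a line, for the receptors, Por and the 14 P450 genes called with a fold of at least 2. Por, Cyp2a4 and Cyp3a25 have every mutant array above every WT array, and Cyp2c70, Cyp2f2 and Cyp4f14 have every mutant array below. Cyp2j5 does too, but it was above background on no mutant array and passed the filter only through WT, so it had to differ.

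In family 1, Cyp1a2, which oxidises arylamines and caffeine and is an Ahr target, stood at 6.70, 6.45 and 6.39 in β-catΔEx3 livers, at 5.74, 5.83, 6.54 and 4.38 in β-catΔEx3:Myc livers and at 3.48, 3.62, 3.94 and 4.85 in WT livers. β-catΔEx3:Myc replicate 4 lay below WT replicate 4, both on slide 4, and all other mutant arrays lay above WT. It rose 5.82-fold in β-catΔEx3 livers (log2 fold change 2.54 ± 0.46 SE, adjusted p = 0.00214) and 3.14-fold in β-catΔEx3:Myc livers (1.65 ± 0.43, adjusted p = 0.0106). In the fit with a slide block the values were 1.13 (adjusted p = 0.141) and -0.07 (adjusted p = 0.938), so the sign in β-catΔEx3:Myc livers turned. Among the 6 arrays with Y-linked transcripts they were 2.26 and 2.03 (adjusted p = 0.0431 and 0.042).

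The other genes of family 1 were dim and not called. Cyp1a1, which oxidises polycyclic hydrocarbons and is the classical Ahr target, had log2 fold changes of 1.14 ± 0.49 and 1.11 ± 0.45 SE (adjusted p = 0.0901 and 0.0702), and was not above background in WT replicates 2 and 3. Without WT replicate 4 these were 1.49 and 1.46 (adjusted p = 0.0276 and 0.0194), and without β-catΔEx3 replicate 2 the β-catΔEx3 value was 1.5 (adjusted p = 0.0497). Cyp1b1, which acts on estrogens and hydrocarbons, gave 1.09 ± 0.40 in β-catΔEx3 and 0.60 ± 0.37 in β-catΔEx3:Myc livers (adjusted p = 0.0546 and 0.216), and 1.58 in β-catΔEx3 livers without β-catΔEx3 replicate 2 (adjusted p = 0.00614).

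Cyp2a4, a testosterone hydroxylase with female-biased expression, measured 10.49, 10.43 and 10.52 in β-catΔEx3 livers, 10.12, 10.53, 10.50 and 10.44 in β-catΔEx3:Myc livers and 7.70, 8.84, 9.12 and 8.96 in WT livers. The mutant arrays lay close together above all WT arrays, and WT replicate 1 was the lowest. It rose 3.54-fold (log2 fold change 1.82 ± 0.30 SE, adjusted p = 0.00115) and 3.34-fold (1.74 ± 0.27, adjusted p = 0.000751) in β-catΔEx3 and β-catΔEx3:Myc livers. A second probe differed by 3.10 and 2.95. The promoters of Cyp2a4 and Cyp2a5, the coumarin hydroxylase without a probe of its own here, were identical over 97.7%, and how much Cyp2a5 RNA these probes detect was not tested. Blocking on slide, the values were 1.58 and 1.46 (adjusted p = 0.124 and 0.144).

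The Cyp2b genes did not pass the test, and their arrays spread widely (genes chosen for display after their values were seen). Cyp2b10, a target of Nr1i3, measured 4.43, 4.5 and 3.65 in β-catΔEx3 livers, 2.0, 3.90, 3.92 and -4.03 in β-catΔEx3:Myc livers and 5.35, 5.75, 6.67 and 1.91 in WT livers. Cyp2b9 measured 0.40, 0.31 and 0.12, then -2.02, 0.21, -0.11 and -6.09, and in WT livers 1.31, 2.06, 2.77 and -2.90. Cyp2b13 measured 0.09, 2.54 and -0.15, then -1.27, -0.74, 0.10 and -6.35, and in WT livers 2.14, 3.95, 5.03 and -4.35. In all 3 genes β-catΔEx3:Myc replicate 4 was the lowest array, WT replicate 4 was the lowest WT array, and WT replicates 2 and 3, which had Xist, were the highest of all. β-catΔEx3:Myc replicates 1 and 4 also had Xist and were the lowest of their group. Cyp2b9 was not above background in β-catΔEx3:Myc replicate 4, nor was Cyp2b13 there or in WT replicate 4.

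The log2 fold changes of Cyp2b9, Cyp2b10 and Cyp2b13 were -0.53 ± 1.58, -0.73 ± 1.76 and -0.87 ± 2.15 SE in β-catΔEx3 livers (adjusted p = 0.819, 0.778 and 0.782) and -2.81 ± 1.46, -3.47 ± 1.63 and -3.76 ± 1.99 in β-catΔEx3:Myc livers (adjusted p = 0.148, 0.112 and 0.155). On the 6 arrays with Y-linked transcripts the β-catΔEx3:Myc values were 0.85, 0.28 and 0.79 (adjusted p = 0.664, 0.88 and 0.818), of the opposite sign. Without WT replicate 4, Cyp2b9 and Cyp2b13 passed the test in β-catΔEx3:Myc livers (-4.05 and -5.77, adjusted p = 0.0301 and 0.0114).

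**Figure D3:**
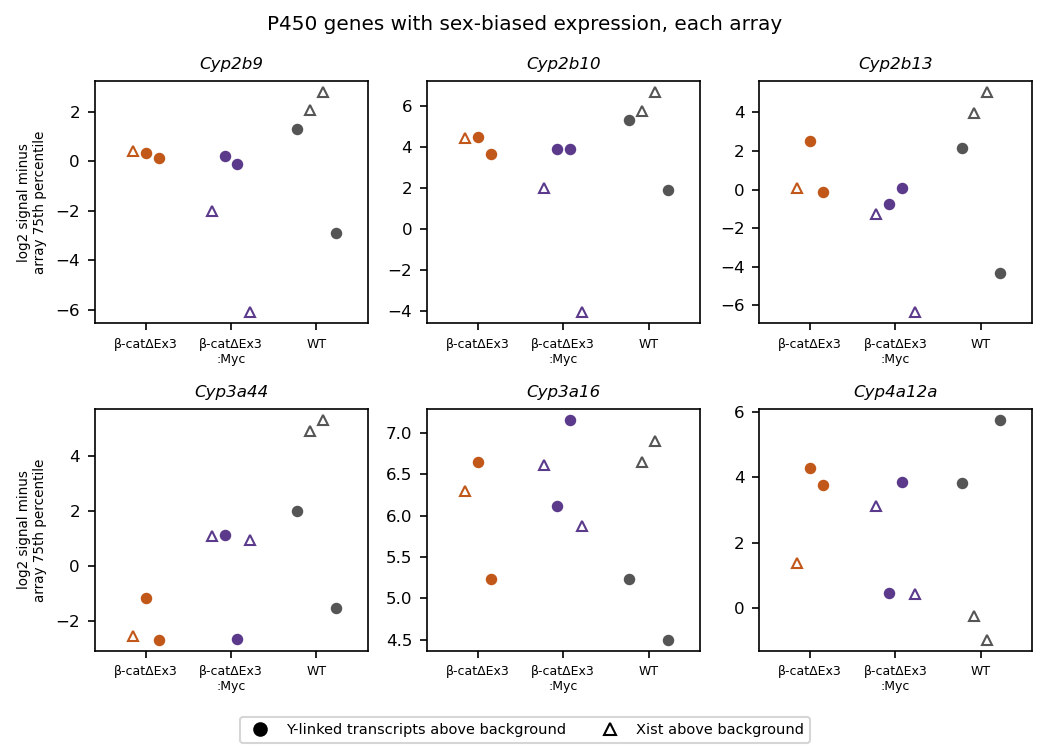
Log2 signal minus the array's 75th percentile (vertical axis) on each array of β-catΔEx3, β-catΔEx3:Myc and WT livers for 6 genes with sex-biased expression, with filled circles for arrays with Y-linked transcripts above background and open triangles for arrays with Xist. In WT livers the triangles of Cyp2b9, Cyp2b10, Cyp2b13, Cyp3a44 and Cyp3a16 lie above the circles and those of Cyp4a12a below. In β-catΔEx3:Myc livers the triangles of Cyp2b9, Cyp2b10 and Cyp2b13 lie below the circles and the symbols of the other 3 genes are mixed, and the single β-catΔEx3 triangle of Cyp4a12a lies below both circles.

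The Cyp2c genes, which act on arachidonic acid, drugs and steroids, moved in both directions. Of 8 tested, Cyp2c55 rose and Cyp2c54 and Cyp2c70 fell in both groups, Cyp2c37 rose in β-catΔEx3:Myc livers, and 4 were not called in either. Cyp2c70, which makes the muricholic bile acids of mice, measured 5.45, 6.20 and 4.10 in β-catΔEx3 livers, 5.74, 5.97, 5.20 and 6.84 in β-catΔEx3:Myc livers and 8.85, 8.80, 8.59 and 8.83 in WT livers. All WT arrays lay within a narrow band above the mutants. It fell 11.4-fold (log2 fold change -3.52 ± 0.47 SE, adjusted p = 0.000424) and 7.10-fold (-2.83 ± 0.43, adjusted p = 0.000625) in β-catΔEx3 and β-catΔEx3:Myc livers, with blocked values of -3.82 and -2.89 (adjusted p = 0.0365 and 0.073). Adding the Y-linked split to the block gave -3.88 and -2.99 (adjusted p = 0.0665 and 0.133).

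Cyp2c55, which oxidises arachidonic acid and responds to Nr1i2 and Nr1i3, measured 3.82, 6.01 and 2.80 in β-catΔEx3 livers, 4.17, 3.49, 5.03 and 3.75 in β-catΔEx3:Myc livers and 1.78, 1.33, 1.69 and 2.32 in WT livers. No mutant array reached down to WT. It rose 5.38-fold (log2 fold change 2.43 ± 0.64 SE, adjusted p = 0.0139) and 5.03-fold (2.33 ± 0.60, adjusted p = 0.00971). Without β-catΔEx3 replicate 2 the β-catΔEx3 value was 1.53 (adjusted p = 0.0261) and without β-catΔEx3 replicate 3 it was 3.13 (adjusted p = 0.00452). In the fit with a slide block the values were 1.16 and 0.76 (adjusted p = 0.488 and 0.653), and on the 6 arrays with Y-linked transcripts 2.36 and 2.21 (adjusted p = 0.206 and 0.194).

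Cyp2c54, a fatty acid epoxygenase, measured 6.49, 6.85 and 5.80 in β-catΔEx3 livers, 5.62, 6.75, 7.07 and 6.93 in β-catΔEx3:Myc livers and 7.45, 7.56, 7.49 and 8.52 in WT livers. It fell 2.59-fold (log2 fold change -1.38 ± 0.40 SE, adjusted p = 0.0215) and 2.24-fold (-1.16 ± 0.37, adjusted p = 0.0277), and its 2 other probes differed more (-1.95 and -2.90, then -1.57 and -2.26). The groups did not overlap, but single arrays decided the calls. The β-catΔEx3 call was lost without β-catΔEx3 replicate 1 (-1.43, adjusted p = 0.0512) or β-catΔEx3 replicate 3 (-1.09, adjusted p = 0.0846), and the β-catΔEx3:Myc call without WT replicate 4 (-0.91, adjusted p = 0.0713) or β-catΔEx3:Myc replicate 1 (-0.84, adjusted p = 0.0614). Blocking on slide, the values were -2.18 and -2.13 (adjusted p = 0.0763 and 0.0804), and on the 6 arrays with Y-linked transcripts -1.66 and -1.07 (adjusted p = 0.0907 and 0.179).

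Cyp2c37, which oxidises arachidonic acid, measured 6.37, 5.56 and 5.07 in β-catΔEx3 livers, 5.42, 6.65, 6.72 and 6.70 in β-catΔEx3:Myc livers and 4.59, 4.90, 5.56 and 5.64 in WT livers. It rose 2.30-fold in β-catΔEx3:Myc livers (log2 fold change 1.20 ± 0.38 SE, adjusted p = 0.0275), where β-catΔEx3:Myc replicate 1 lay among the WT arrays. The call was lost without WT replicate 1 (1.01, adjusted p = 0.0767), WT replicate 2 (1.11, 0.0707), β-catΔEx3:Myc replicate 2 (1.11, 0.0691), β-catΔEx3:Myc replicate 3 (1.09, 0.0697) or β-catΔEx3:Myc replicate 4 (1.1, 0.0633), and with slide as a block (0.54, 0.682). Its 2 probes disagreed: the dimmer probe differed by -0.38 in β-catΔEx3 and -0.14 in β-catΔEx3:Myc livers. In β-catΔEx3 livers the brighter probe gave 0.50 ± 0.41 (adjusted p = 0.378).

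The remaining Cyp2c genes, Cyp2c29, Cyp2c38, Cyp2c39 and Cyp2c50, had log2 fold changes from -1.08 to 0.30 in β-catΔEx3 livers and from -0.97 to -0.12 in β-catΔEx3:Myc livers. Cyp2c29 was the lowest of them (-1.08 ± 0.45 and -0.97 ± 0.42 SE, adjusted p = 0.0832 and 0.0843), and without β-catΔEx3 replicate 2 it passed the test (-1.71 and -0.97, adjusted p = 0.00357 and 0.0138), as it did in β-catΔEx3:Myc livers without β-catΔEx3 replicate 3 (-0.97, adjusted p = 0.0344). The 2 probes of Cyp2c38 differed in sign in both comparisons (-0.03 and -0.22 for the brighter probe, 0.22 and 1.67 for the dimmer), and no direction is given for it.

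Along the Cyp2c cluster on chromosome 19, neighbouring genes can be read in order. In the order of RefSeq, Cyp2c55, Cyp2c65 and Cyp2c66 follow each other at one end, and Cyp2c70 stands at the other. Cyp2c65 and Cyp2c66 were above background on 0 WT arrays and on all 4 β-catΔEx3:Myc arrays, so they passed the filter only through the mutants and had to differ. With dimmer WT signals raised to the array's lowest signal well above background, they were 1.58-fold and 2.36-fold higher in β-catΔEx3:Myc livers, which are not strict bounds. Adjusted p was 0.00683 and 0.00893 in the limma fit, and 0.645 and 0.564 once slide was blocked. In the middle of the cluster Cyp2c67 and Cyp2c68 fell in both groups (-3.12 and -2.89 in β-catΔEx3, -3.28 and -2.74 in β-catΔEx3:Myc livers, largest adjusted p = 0.000154), and both were called in the slide-blocked fit (largest adjusted p = 0.0154). The sequences of these genes are close, and the share of signal between their probes was not tested.

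**Figure D4:**
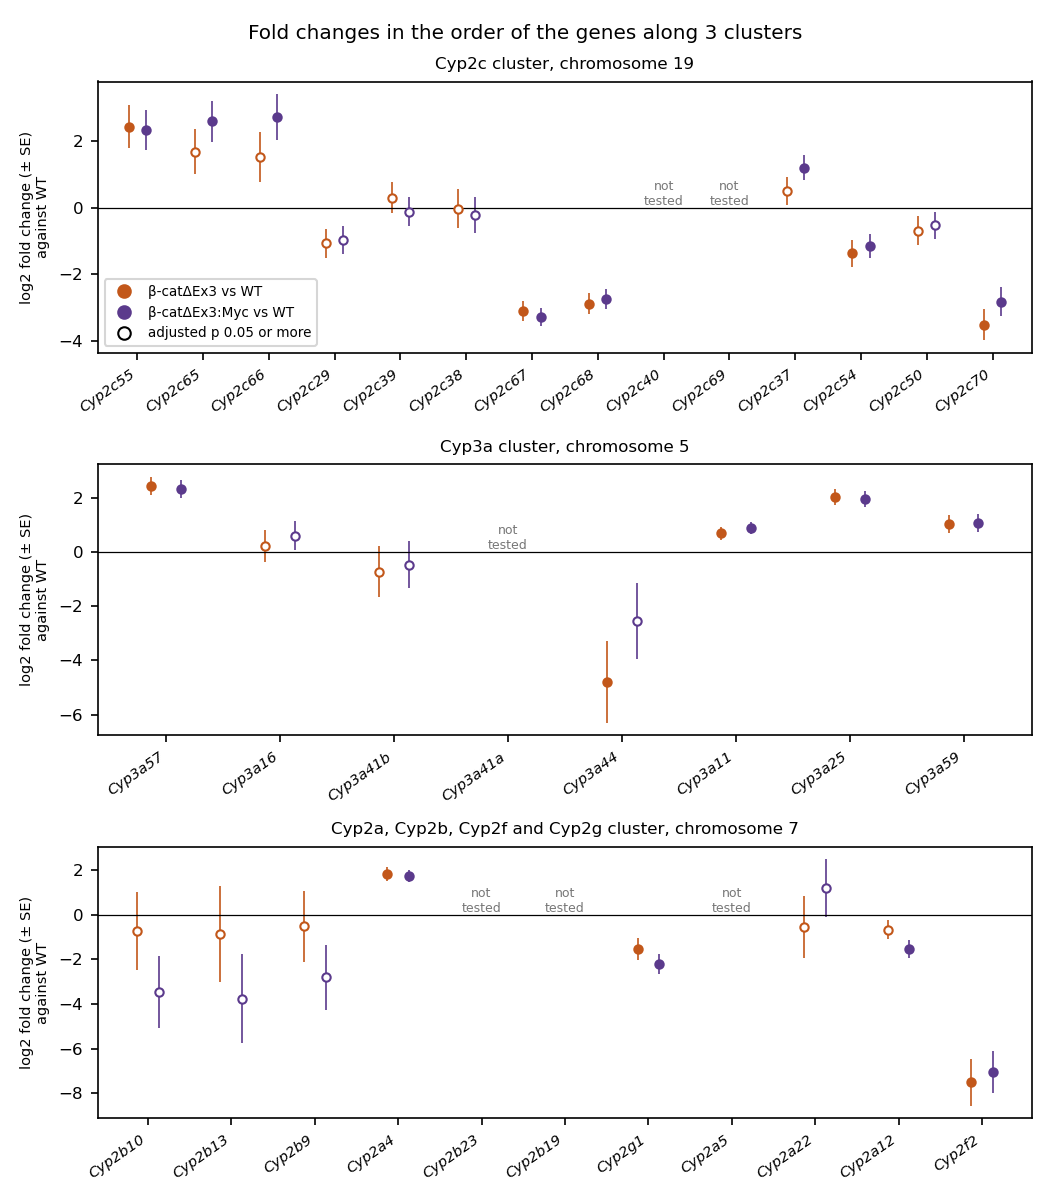
Log2 fold change against WT (points, with SE as bars, filled for an adjusted p under 0.05) of P450 genes placed in their RefSeq order along 3 clusters, in β-catΔEx3 (orange) and β-catΔEx3:Myc (purple) livers, with genes that had no tested probe marked. The points of Cyp2c65 and Cyp2c66 are differences from WT signals not above background. In the chromosome 7 cluster Cyp2a4 (1.82 and 1.74) and Cyp2f2 (-7.52 and -7.05) point in opposite directions.

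The Cyp2d genes and Cyp2e1 were not called. Log2 fold changes of Cyp2d9, Cyp2d10, Cyp2d22 and Cyp2d26 ran from -0.10 to 0.31 in β-catΔEx3 livers and from -0.05 to 0.40 in β-catΔEx3:Myc livers. Cyp2d9, a male-biased steroid hydroxylase, gave 0.81 in β-catΔEx3:Myc livers without WT replicate 4 (adjusted p = 0.0415) and 0.40 ± 0.40 with it. Cyp2e1, which oxidises ethanol and paracetamol and is perivenous in normal liver, differed by 0.29 ± 0.20 and 0.24 ± 0.19 SE (adjusted p = 0.281 and 0.331), and was chosen for display after its values were seen. It stood at 10.22, 10.10 and 9.99 in β-catΔEx3 livers, at 9.77, 10.20, 10.16 and 10.06 in β-catΔEx3:Myc livers and at 9.94, 9.44, 9.61 and 10.24 in WT livers. The 3 groups overlapped. A second, dimmer probe of Cyp2e1 differed by 0.52 in β-catΔEx3 and 0.61 in β-catΔEx3:Myc livers, and was not tested on its own.

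Cyp2f2 and Cyp2j5 were lower in both groups. Cyp2f2, which oxidises naphthalene and is a periportal hepatocyte gene, measured 0.87, 2.91 and -0.75 in β-catΔEx3 livers, 0.09, 1.12, 0.30 and 4.43 in β-catΔEx3:Myc livers and 8.58, 8.32, 8.21 and 9.01 in WT livers. It fell 184-fold in β-catΔEx3 livers (log2 fold change -7.52 ± 1.04 SE, adjusted p = 0.000519) and 132-fold in β-catΔEx3:Myc livers (-7.05 ± 0.96, adjusted p = 0.000329). The mutant arrays spread over several log2 units, with β-catΔEx3:Myc replicate 4 the highest, and even that array was far below WT. Without β-catΔEx3 replicate 2 the β-catΔEx3 value was -8.47 and without β-catΔEx3 replicate 3 it was -6.64, and without β-catΔEx3:Myc replicate 4 the β-catΔEx3:Myc value was -8.03 (adjusted p = 0.000547, 0.00251 and 5.25e-05). In the fit with a slide block the calls did not pass the threshold (-7.61 and -6.74, adjusted p = 0.0586 and 0.0762). Among the 6 arrays with Y-linked transcripts it was -7.72 and -8.09 (adjusted p = 0.0137 and 0.0103).

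Cyp2j5, an arachidonic acid epoxygenase of liver and kidney, measured -6.46, -6.46 and -6.68 in β-catΔEx3 livers, -6.82, -6.15, -6.81 and -5.10 in β-catΔEx3:Myc livers and -1.17, -1.17, -1.28 and -0.38 in WT livers. It was above background on all 4 WT arrays and on no mutant array, so it passed the filter only through WT and had to differ. With dimmer signals raised to the lowest signal well above background, it was 16.4-fold lower in β-catΔEx3 and 12.2-fold lower in β-catΔEx3:Myc livers (adjusted p = 1.04e-05 and 6.78e-06 in the fit). These folds set the brighter group's mean against the raised signals of the dim arrays. A probe not above background can lie higher than that lowest signal, so the folds are not strict bounds.

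Cyp2r1 fell in both groups and Cyp2u1 in β-catΔEx3:Myc livers. Cyp2r1, the vitamin D hydroxylase of the liver, measured 2.58, 3.29 and 2.80 in β-catΔEx3 livers, 2.6, 2.27, 2.65 and 1.67 in β-catΔEx3:Myc livers and 3.68, 3.72, 3.56 and 3.62 in WT livers. It fell 1.68-fold in β-catΔEx3 livers (log2 fold change -0.75 ± 0.25 SE, adjusted p = 0.0359) and 2.54-fold in β-catΔEx3:Myc livers (-1.35 ± 0.23, adjusted p = 0.00114), with no mutant array reaching WT, and a second probe gave -1.04 and -1.62. The β-catΔEx3 call was lost without any of WT replicates 1 to 4 (-0.74, -0.73, -0.78 and -0.76, adjusted p = 0.0701, 0.0773, 0.0593 and 0.0598), without β-catΔEx3 replicate 1 (-0.60, 0.136) or β-catΔEx3 replicate 3 (-0.70, 0.0939), and with slide as a block (-1.03, 0.13). The β-catΔEx3:Myc value was -1.74 with the block (adjusted p = 0.0349) and -1.59 with the Y-linked split added to it (adjusted p = 0.0887).

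Cyp2u1, a fatty acid hydroxylase, measured -1.16, -1.94 and -1.35 in β-catΔEx3 livers, -3.28, -2.80, -2.18 and -3.42 in β-catΔEx3:Myc livers and -1.12, -1.72, -2.30 and -0.97 in WT livers. All β-catΔEx3:Myc arrays were below all β-catΔEx3 arrays, and WT replicate 3 lay among the β-catΔEx3:Myc arrays. It fell 2.62-fold in β-catΔEx3:Myc against WT livers (log2 fold change -1.39 ± 0.35 SE, adjusted p = 0.00931), and the slide block gave -2.25 (adjusted p = 0.0524). In β-catΔEx3 livers the value was 0.05 ± 0.38 (adjusted p = 0.938).

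In family 3, Cyp3a25 and Cyp3a11, steroid and drug hydroxylases, rose in both groups. Cyp3a25 measured 8.47, 8.41 and 8.27 in β-catΔEx3 livers, 8.0, 8.35, 8.68 and 8.22 in β-catΔEx3:Myc livers and 6.38, 5.94, 5.85 and 7.19 in WT livers. All mutant arrays were above WT replicate 4, the highest WT array. It rose 4.12-fold (log2 fold change 2.04 ± 0.30 SE, adjusted p = 0.00068) and 3.93-fold (1.97 ± 0.28, adjusted p = 0.00038), with blocked values of 1.15 and 0.96 (adjusted p = 0.0603 and 0.0908). On the 6 arrays with Y-linked transcripts the values were 1.55 and 1.73 (adjusted p = 0.0409 and 0.0237).

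Cyp3a11, the main Nr1i2 target, rose 1.64-fold in β-catΔEx3 livers (log2 fold change 0.71 ± 0.24 SE, adjusted p = 0.0385) and 1.88-fold in β-catΔEx3:Myc livers (0.91 ± 0.22, adjusted p = 0.00739). Its second probe gave 0.77 and 1.11. Dropping either β-catΔEx3 replicate 1 (0.62, adjusted p = 0.127) or 2 (0.51, 0.134), or WT replicate 2 (0.68, 0.0843), 3 (0.70, 0.0772) or 4 (0.67, 0.0756), ended the β-catΔEx3 call, and a slide block ended both (0.52 and 0.59, adjusted p = 0.361 and 0.292).

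Cyp3a44, a female-biased gene, measured -2.52, -1.15 and -2.67 in β-catΔEx3 livers, 1.11, 1.13, -2.64 and 0.97 in β-catΔEx3:Myc livers and 1.99, 4.92, 5.30 and -1.51 in WT livers. WT replicates 2 and 3, which had Xist, were the highest, and WT replicate 4 overlapped the β-catΔEx3 arrays. It fell 27.7-fold in β-catΔEx3 livers (log2 fold change -4.79 ± 1.52 SE, adjusted p = 0.0309), and the value in β-catΔEx3:Myc livers was -2.53 ± 1.41 (adjusted p = 0.175). Dropping β-catΔEx3 replicate 1 (-4.59, adjusted p = 0.0883) or 3 (-4.51, 0.0857), or WT replicate 2 (-4.04, 0.0789) or 3 (-3.92, 0.0765), ended the β-catΔEx3 call, and without WT replicate 4 the values were -6.19 and -3.93 (adjusted p = 0.00339 and 0.0162). Among the 6 arrays with Y-linked transcripts they were -2.15 and -1.0 (adjusted p = 0.408 and 0.688), and with slide as a block -0.94 and 2.25 (adjusted p = 0.692 and 0.314).

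Cyp3a16, a gene of fetal and young liver whose promoter is shown above beside that of Cyp3a44, measured 6.29, 6.64 and 5.24 in β-catΔEx3 livers, 6.61, 6.11, 7.15 and 5.87 in β-catΔEx3:Myc livers and 5.24, 6.64, 6.90 and 4.5 in WT livers (chosen for display after its values were seen). WT replicates 2 and 3 were again the higher WT arrays, but the groups overlapped. Its log2 fold changes were 0.23 ± 0.59 and 0.61 ± 0.54 SE (adjusted p = 0.784 and 0.391). Cyp3a13 differed by -1.46 ± 0.59 and -0.28 ± 0.55 (adjusted p = 0.0769 and 0.715), with a second probe at -1.87 and -0.63. Without β-catΔEx3 replicate 1 its β-catΔEx3 value was -2.21 (adjusted p = 0.00921), and on the 6 arrays with Y-linked transcripts, from which that replicate is missing, it was -2.36 (adjusted p = 0.00991).

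In family 4, Cyp4f14, a leukotriene and vitamin E hydroxylase, measured 3.75, 5.17 and 3.51 in β-catΔEx3 livers, 2.86, 3.68, 4.06 and 3.85 in β-catΔEx3:Myc livers and 7.43, 7.16, 6.94 and 7.17 in WT livers. Every mutant array was below every WT array. It fell 8.18-fold (log2 fold change -3.03 ± 0.39 SE, adjusted p = 0.000356) and 11.8-fold (-3.56 ± 0.36, adjusted p = 6.37e-05). It was also called with slide as a block (-3.15 and -3.83, adjusted p = 0.0457 and 0.0275) and on the 6 arrays with Y-linked transcripts (-2.96 and -3.43, adjusted p = 0.0264 and 0.0143). With both as blocks neither value passed (-3.01 and -3.55, adjusted p = 0.0767 and 0.0717).

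Cyp4v3, a fatty acid hydroxylase, gave -0.63 ± 0.32 and -0.71 ± 0.30 SE (adjusted p = 0.152 and 0.0785), but -1.67 and -1.91 with slide as a block (adjusted p = 0.0286 and 0.0203) and -1.63 and -1.83 with the Y-linked split added (adjusted p = 0.0597 and 0.0606), and without β-catΔEx3:Myc replicate 3 the β-catΔEx3:Myc value was -0.87 (adjusted p = 0.0497). Cyp4a12a, the male-biased arachidonic acid hydroxylase, measured 1.37, 4.30 and 3.77 in β-catΔEx3 livers, 3.13, 0.46, 3.87 and 0.41 in β-catΔEx3:Myc livers and 3.82, -0.27, -0.99 and 5.76 in WT livers (chosen for display after its values were seen). In WT livers the 2 arrays with Y-linked transcripts were high and the 2 with Xist were low, while in β-catΔEx3:Myc livers each pair held a high and a low array. Its log2 fold changes were 1.07 ± 1.60 and -0.11 ± 1.48 (adjusted p = 0.635 and 0.961).

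Cyp26a1, which breaks down retinoic acid, measured 3.27, 2.12 and 2.99 in β-catΔEx3 livers, 0.71, 3.02, 3.38 and 1.64 in β-catΔEx3:Myc livers and -1.57, -0.03, -1.76 and 0.50 in WT livers. The lowest mutant array (0.71) was just above the highest WT array (0.50). It rose 11.4-fold (log2 fold change 3.51 ± 0.72 SE, adjusted p = 0.00384) and 7.47-fold (2.90 ± 0.66, adjusted p = 0.00555), with blocked values of 2.32 and 1.31 (adjusted p = 0.227 and 0.475). On the 6 arrays with Y-linked transcripts the values were 3.09 and 3.73 (adjusted p = 0.0444 and 0.0211). Cyp17a1, an enzyme of androgen synthesis, gave 0.00 ± 0.49 and 0.78 ± 0.45 (adjusted p = 1 and 0.193).

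Between the mutant groups none of the 38 genes was called by limma: 0 rose and 0 fell in β-catΔEx3:Myc against β-catΔEx3 livers. Of all items 0.108% rose and 0.144% fell by adjusted p in this comparison (0.251% either way). An unadjusted p under 0.05 was found for 2 of the 38 genes, beside 2295 of all 22282 items. The 2 genes were Cyp2u1 (log2 fold change -1.43 ± 0.38 SE, adjusted p = 0.171) and Cyp2r1 (-0.59 ± 0.25, adjusted p = 0.433). The median over the 38 genes was -0.04, beside 0.01 over all items, and the values ran from -2.89 ± 2.15 SE for Cyp2b13 to 2.26 ± 1.52 for Cyp3a44. With 4 and 3 arrays such differences are not excluded, and the Myc probe itself was not called in this comparison. The comparisons against WT share the WT arrays, so their likeness is no independent support.

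Among other P450 genes of families 1 to 4, 36 were tested, of which 2 rose and 14 fell in β-catΔEx3 livers and 5 rose and 14 fell in β-catΔEx3:Myc livers. Over all items 21.6% rose and 15.5% fell, and 25.3% rose and 17.1% fell, in the same order. The genes that rose in β-catΔEx3:Myc livers include Cyp2c65 and Cyp2c66, which passed the filter only through the mutants. Cyp4f40 passed it only through WT. Cyp2j9, Cyp2d40, Cyp2j8 and Cyp2c67 fell most, by 15.1-fold, 10.2-fold, 8.94-fold and 8.68-fold in β-catΔEx3 livers and by 23.4-fold, 19.6-fold, 10.9-fold and 9.75-fold in β-catΔEx3:Myc livers (largest adjusted p = 0.00161). Cyp2j9 was not called in the slide-blocked fit (adjusted p = 0.0932 and 0.0625), and the other 3 were (largest adjusted p = 0.0375). Cyp2j8 stood at 1.44, 1.95 and 1.18 in β-catΔEx3 livers, at 0.98, 1.29, 1.41 and 1.26 in β-catΔEx3:Myc livers and at 4.81, 4.55, 4.44 and 4.93 in WT livers, a narrow spread in each group. Cyp3a59, next to Cyp3a25, rose 2.06-fold and 2.11-fold (adjusted p = 0.0354 and 0.0192), and Cyp4a14, a fatty acid hydroxylase, rose 3.30-fold in β-catΔEx3:Myc livers (adjusted p = 0.0376), with a log2 fold change of 0.93 in β-catΔEx3 livers (adjusted p = 0.279). Blocking on slide ended these calls (adjusted p = 0.298 and 0.394 for Cyp3a59, 0.207 for Cyp4a14). Cyp3a57, the gene next to Cyp3a16 in RefSeq order, rose 5.46-fold and 5.05-fold (adjusted p = 0.000582 and 0.000349, and 0.0303 and 0.0621 with the block). Cyp2c23, whose older name is Cyp2c44, fell 4.67-fold and 4.28-fold (log2 fold change -2.22 ± 0.26 and -2.10 ± 0.24 SE, adjusted p = 0.000207 and 0.00013), and was also called in the slide-blocked fit (-2.66 and -2.54, adjusted p = 0.0204 and 0.0249). Of 10 P450 genes of other families, Cyp26b1, a relative of Cyp26a1, rose in both (log2 fold change 3.23 and 3.42, adjusted p = 0.0231 and 0.0105), but not in the slide-blocked fit (adjusted p = 0.445 and 0.422). Cyp8b1, which makes cholic acid, fell 7.64-fold in β-catΔEx3 livers (adjusted p = 0.00075), and its log2 fold change in β-catΔEx3:Myc livers was -0.98 (adjusted p = 0.0759). With slide blocked the Cyp8b1 values were -3.24 and -1.6 (adjusted p = 0.00475 and 0.0341).

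Part of the machinery around the P450 enzymes was called. Over all items, 37.1% were called either way in β-catΔEx3 livers and 42.4% in β-catΔEx3:Myc livers. Whether the short lists below differ from that share was not tested. Of 7 electron donors and heme-binding partners beside Por, 3 rose and 0 fell in β-catΔEx3 livers and 3 rose and 2 fell in β-catΔEx3:Myc livers. Fdxr, the reductase of mitochondrial P450 enzymes, rose 2.64-fold and 2.32-fold (adjusted p = 0.000259 and 0.000258), and Pgrmc1, a heme-binding partner of P450 enzymes, rose 2.04-fold and 1.66-fold (adjusted p = 0.0127 and 0.0344). Cyb5a, cytochrome b5, rose 1.53-fold and 1.43-fold (adjusted p = 0.0204 and 0.0259), and Cyb5r3, the reductase of cytochrome b5, fell 2.10-fold in β-catΔEx3:Myc livers (adjusted p = 0.00555), with a log2 fold change of -0.62 in β-catΔEx3 livers (adjusted p = 0.0881). Blocking on slide ended all of these calls (adjusted p = 0.0533 and 0.0761 for Fdxr, 0.138 and 0.74 for Pgrmc1, 0.516 and 0.733 for Cyb5a, 0.145 for Cyb5r3), and the Pgrmc1 value in β-catΔEx3:Myc livers was then 0.14, against 0.73 without the block. Of 12 genes of heme synthesis and breakdown, 3 rose and 1 fell in β-catΔEx3 and 4 rose and 1 fell in β-catΔEx3:Myc livers. The 2 that rose most break heme down or clear its product: Hmox1, heme oxygenase (10.5-fold and 3.60-fold, adjusted p = 0.00267 and 0.0289), and Blvrb, a biliverdin reductase (10.2-fold and 8.69-fold, adjusted p = 0.00032 and 0.000213). Hmox2, the second heme oxygenase, rose 1.77-fold in β-catΔEx3:Myc livers (adjusted p = 0.00817), with a log2 fold change of 0.57 in β-catΔEx3 livers (adjusted p = 0.0647). Blvrb was also called with slide as a block (adjusted p = 0.0127 and 0.0232), and Hmox1 (adjusted p = 0.0856 and 0.451) and Hmox2 (adjusted p = 0.582) were not.

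Of 12 tested receptor partners and co-regulators, 2 rose and 4 fell in β-catΔEx3 livers and 3 rose and 4 fell in β-catΔEx3:Myc livers. Over all items, 37.1% and 42.4% were called either way. Rxra, the partner of Nr1i2 and Nr1i3 on DNA, rose 1.83-fold in β-catΔEx3 livers (adjusted p = 0.0255), with a log2 fold change of 0.59 in β-catΔEx3:Myc livers (adjusted p = 0.075). Ppargc1a, a coactivator, rose 5.21-fold in β-catΔEx3:Myc livers (adjusted p = 0.00165), with a log2 fold change of 1.22 in β-catΔEx3 livers (adjusted p = 0.0643). Ppara, the fatty acid receptor that drives Cyp4a genes, fell 1.34-fold and 1.95-fold (adjusted p = 0.0468 and 0.000419), and Nr3c1, the glucocorticoid receptor, fell 1.71-fold and 1.76-fold (adjusted p = 0.00321 and 0.00124). None of these 4 was called once slide was blocked (adjusted p = 0.331 for Rxra, 0.132 for Ppargc1a, 0.296 and 0.0521 for Ppara, 0.0539 and 0.0532 for Nr3c1).

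Lists of genes by zone and by sex bias in normal liver held genes that rose and genes that fell. Over all items 21.6% rose and 15.5% fell in β-catΔEx3 livers, and 25.3% rose and 17.1% fell in β-catΔEx3:Myc livers. Of 10 tested genes with perivenous expression in normal liver (Por and the receptors Ahr and Nr1i3 included), 3 rose and 1 fell in β-catΔEx3 livers (Por, Cyp1a2 and Cyp3a11, and Cyp2c54), and 5 rose and 1 fell in β-catΔEx3:Myc livers (Ahr and Cyp2c37 as well). The median log2 fold change was 0.47 and 0.39, beside 0.10 and 0.14 over all items, and it turned to -0.02 and -0.16 with slide as a block and to -0.17 and -0.30 within slide 4. Of these calls only those of Por passed with the slide block. Of 8 tested female-biased genes, Cyp2a4 rose in both groups and Cyp3a44 fell in β-catΔEx3 livers, with medians of -0.27 and -1.33. These medians were 0.35 and 0.01 in the slide-blocked fit and 1.15 and 0.47 within slide 4, and neither gene was called once slide was blocked. Within slide 4 the β-catΔEx3:Myc array had Xist and the WT array had Y-linked transcripts, so the 0.47 also crosses that split. Of 3 male-biased genes, Cyp2u1 fell in β-catΔEx3:Myc livers. The lists were made with earlier results of these data known.

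**Figure D5:**
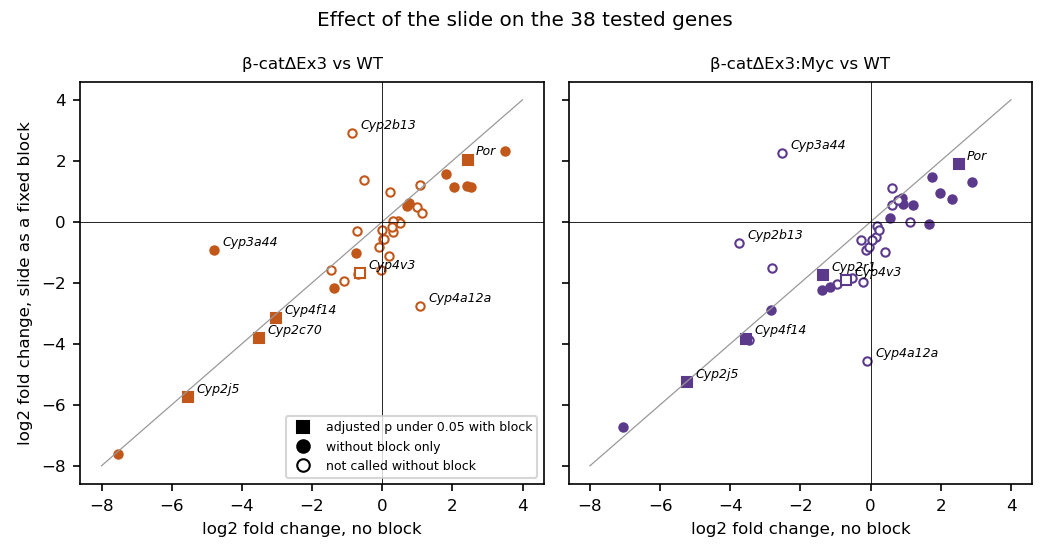
Log2 fold change against WT without a block (horizontal axis) and with slide as a fixed block (vertical axis) for the 38 tested genes in β-catΔEx3 (left) and β-catΔEx3:Myc (right) livers. Filled symbols have an adjusted p under 0.05 without the block and squares with it, the grey line marks equal values, and Cyp3a44, Cyp2b13 and Cyp4a12a lie farthest from it.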

How the data were processed

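RNA from 11 mouse livers was extracted with RNA STAT-60, labelled with Cy3 and hybridised to 1-colour Agilent arrays, per the labels' protocols. The deposited scanner files hold spot intensity from Agilent Feature Extraction 10.7.1.1, per the file headers, with background subtraction and no normalization between arrays. The authors also deposited a value table that reads as log2 and followed the scanner values in rank on every array (Spearman 1), with a median of 4.51 and the same set of values on each array, as quantile normalization leaves them. How it was made is not given in the sources used here, and it served as an alternative.

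From the intensity, outlier spots were left out, spots of a probe averaged, log2 taken and each array's 75th percentile subtracted. Probes well above background on at least 3 of 11 arrays were kept (29695 of 55681). Symbols came from accessions matched to RefSeq GRCm38.p6, with the brightest probe for each gene, giving 22282 items, 13963 of them with a symbol. R 4.3.3 with limma 3.58.1 fitted 3 group means over all 11 arrays, and p-values were adjusted over all items by Benjamini-Hochberg (threshold 0.05). The procedure was tested on simulated data. No saturated spots were found, and the number of arrays limits the precision.

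Alternatives were another normalization, scaling percentile, background correction (normexp on median signals), the deposited table, filters on dim probes, the mean of a gene's probes, slide as a fixed or random block, only the groups compared, and leaving out each array. Those using Xist and Y-linked transcripts were chosen after seeing the data. Members and lists were chosen with earlier results of these data known. Values on every array are given for the receptors, Por, and members called with a fold of at least 2 that were above background throughout the higher group. Up to 3 called genes of each machinery list and up to 5 other P450 genes in each direction are named for each comparison. Some genes of the machinery lists that meet this rule are not reported here.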

Additional observations from a re-analysis of the deposited data

Results flagged for a closer look

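In groups of 4 arrays, a highest or lowest array was flagged when its gap to the nearest other array took up more of the group's range than Dixon's critical value at the 95% level. Chance flags about 1 in 20 groups, and 76 groups were examined, of which 7 were flagged. In β-catΔEx3:Myc livers, Nr1i2 stood at 4.20 in replicate 4, where the nearest array was 3.62. Cyp2c37 stood at 5.42 in β-catΔEx3:Myc replicate 1, against 6.65 on the nearest array. In β-catΔEx3:Myc replicate 3, Cyp3a11 stood at 9.71 (nearest 9.25) and Cyp3a44 at -2.64 (nearest 0.97). WT replicate 4 held the remaining flags, with Cyp2c50 at 8.53 (nearest 7.58), Cyp2c54 at 8.52 (nearest 7.56) and Cyp2j5 at -0.38 (nearest -1.17). That array was the only WT array on its slide.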

How the results depend on the processing

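With slide as a fixed block, 1 rose and 4 fell in β-catΔEx3 livers (median log2 fold change -0.3), and 1 rose and 4 fell in β-catΔEx3:Myc livers (median -0.6), beside 926 higher and 886 lower, and 956 and 991, of 22282 items. On arrays with Y-linked transcripts only, a fit with 5 arrays fewer, 5 rose and 4 fell in β-catΔEx3 livers and 6 rose and 5 fell in β-catΔEx3:Myc livers. Of 21114 items, 1177 rose and 1073 fell, and 2029 rose and 1782 fell, in the same order. The split as a block on all 11 arrays gave 8 and 7, and 11 and 7, beside 4432 and 3270, and 5459 and 3732, of 22282 items. With both as fixed blocks, 1 rose and 1 fell in β-catΔEx3 livers, and 0 rose and 1 fell in β-catΔEx3:Myc livers (median -0.6), beside 451 higher and 470 lower, and 305 and 320, of 22282 items. The gene that fell was Cyp2j5 in both groups, which passed the filter on dim probes only through WT. Cyp2j5 was also among the 4 that fell in each group with slide alone as a fixed block. Quantile normalization gave 6 higher and 11 lower genes in β-catΔEx3 livers, beside 4102 higher and 3906 lower of 22282 items. Cyp1a2 in β-catΔEx3:Myc livers turned to -0.07 with slide and to -0.02 with both as blocks, and the cause was not tested. Leaving out each array gave 6 to 9 higher and 4 to 8 lower genes in β-catΔEx3 livers (median -0.04 to 0.36, with 4 lower without β-catΔEx3 replicate 3), 8 to 12 and 6 to 9 in β-catΔEx3:Myc livers (median -0.1 to 0.23), and 0 and 0 between the mutant groups (median -0.16 to 0.06). Over all items, leaving out each array gave 3353 to 4875 higher and 2669 to 3530 lower in β-catΔEx3 livers. In β-catΔEx3:Myc livers it gave 4502 to 5863 higher and 3214 to 3967 lower. Slide as a random block kept all 15 and 17 calls. No paired analysis was possible because the replicate numbers follow accession order and pair no samples. WT is compared with the mutants within a slide by 1 array each, which limits the blocked fit. For β-catΔEx3:Myc, that pair sets an array with Xist against a WT array with Y-linked transcripts.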
